A study of Mus musculus and Homo sapiens with 180 samples.

Results

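The libraries described here were 3 replicates of MOLM13 control cells that received 500 nM VTP50469 for 96 h and were then kept without the drug for a further 96 h. They were 3 of the 180 samples of the series and were chosen by their labels alone. MOLM13 is a human acute myeloid leukaemia line that carries the MLL-AF9 fusion, and VTP50469 is a Menin inhibitor. Control cells are a polyclonal population that expresses Cas9 and a control guide RNA. The withdrawal libraries were compared with 3 control libraries in DMSO. For context, 3 control libraries taken at the end of the 96 h of drug and 3 taken 48 h after withdrawal are given beside them, as are the DMSO and 96 h withdrawal libraries of PCGF1/BCOR KO cells, which carry the same Cas9 and guides against both of these PRC1.1 genes and are polyclonal too. The comparison asks which parts of the response to prolonged Menin inhibition were still present after the drug had been removed.

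Menin tethers the MLL protein and its oncogenic fusions to chromatin, where they keep genes such as *MEIS1* and those of the *HOXA* cluster active. These transcription factors hold myeloid progenitors in a self-renewing state. Menin inhibitors release the fusion from a subset of its targets and allow MLL-rearranged cells to mature towards granulocytes and monocytes. PRC1.1 is a Polycomb complex that places a repressive mark on histone H2A at promoters rich in CG dinucleotides, and PCGF1 and BCOR are among its subunits.

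Reads were counted per gene by 3′ RNA-seq, in which each transcript gives reads from its polyadenylated end. The withdrawal libraries held 1717921, 4201931 and 4876584 reads and the DMSO libraries 21732246 to 40250935. A single read was therefore worth 0.612, 0.231 and 0.230 CPM (counts of a gene scaled to a fixed library total) in the withdrawal libraries and 0.0353 to 0.0539 CPM in DMSO. All CPM given here are scaled by TMM, a normalisation that assumes that most genes do not change. Withdrawal replicate 1 stood apart within its group. Mitochondrial transcripts took 39% of its reads, against 5.36% and 6.85% in replicates 2 and 3 and 2.78% to 4.69% in DMSO, and across genes its correlation with the other replicates of its group was 0.57, against 0.77 and 0.85 for replicates 2 and 3. Results that rest on it are given with and without it. High mitochondrial shares were also found in other drug-exposed control libraries. They were 28.1%, 19.4% and 8.71% in drug replicates 1, 2 and 3, and 35.9%, 9.53% and 7.71% in the same replicates at 48 h. Their part in the drug and 48 h levels given below was not tested. The withdrawal libraries are labelled 192 h and the DMSO libraries 96 h, so time in culture, depth and withdrawal cannot be told apart. The labels do not say that replicates were separate cultures, and p-values measure only the spread between libraries. That spread was estimated over all 24 MOLM13 washout libraries, control and knockout. The line was checked by its myeloid genes: *CD33*, *SPI1*, *MPO*, *FLT3* and *CD4* had reads in 12 of the 12 control libraries, with medians of 68.8, 20.1, 107, 55.3 and 23.6 CPM, while *ANPEP* was at a median of 1.12 CPM and *KIT* was at 0 in 7 libraries.

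Of 12741 genes tested, 385 differed between 96 h withdrawal and DMSO at an adjusted p under 0.05 (edgeR quasi-likelihood test, Benjamini-Hochberg adjustment), which is 3.02% of all genes tested. They comprised 197 higher genes (1.55%) and 188 lower genes (1.48%). Same-numbered libraries were taken as paired, although the labels do not say what a number marks. With the replicate number in the model the same comparison called 2418 genes (19.0%), of which 816 were higher (6.40%) and 1602 lower (12.6%). All 385 genes were among them, with the same direction. When only the withdrawal and DMSO libraries of control cells were fitted, 26 genes were called, or 13 with the replicate number. Without withdrawal replicate 1 the count was 132 genes (1.04%), of which 79 were higher (0.620%) and 53 lower (0.416%), or 1130 (8.87%) with the replicate number in the model. The median log2 fold change of all genes was −0.23 with TMM and 0.03 when libraries were scaled by their totals alone, and with that scaling 313 genes (2.46%) were called, of which 82.1% were higher instead of 51.2%. Unless stated otherwise, p-values below come from the model without the replicate number, and log2 fold changes are withdrawal relative to DMSO. Each count of list members below is to be set beside the share of all genes called in the same model.

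*MEIS1*, a homeobox partner of the HOXA proteins and a direct MLL-fusion target, had the largest fall among genes with a mean of at least 10 CPM in the higher group. It lies on chromosome 2 of GRCh38 from 66433452 to 66573869, on the plus strand. Its level was 24.1, 23 and 30.1 CPM in the 3 DMSO libraries and 0, 0.231 and 0 CPM in the withdrawal libraries. A single read was thus left in 3 libraries, against 1714 reads in DMSO, a ratio of pooled CPM of 264 with a 95% counting interval of 47.3 to 10428. The fall was called with a log2 fold change of −7.90 (SE 1.05, edgeR adjusted p = 0.000127) and was called without replicate 1 as well (adjusted p = 0.000649). With the drug still present the level was 0.148, 0 and 2.73 CPM, and 48 h after withdrawal it was 0.840, 0.354 and 0.568 CPM, so that every drug-exposed library lay below every DMSO library. The 250 bases before the start site of its canonical GENCODE transcript, which are given here because this promoter belongs to that gene and PRC1.1 binds CG-rich promoters, hold 16 CG dinucleotides, shown in capitals, and lie at chr2:66434875-66435124 of GRCh38, on the plus strand, inside the gene's annotated bounds because another transcript starts upstream.
MEIS1: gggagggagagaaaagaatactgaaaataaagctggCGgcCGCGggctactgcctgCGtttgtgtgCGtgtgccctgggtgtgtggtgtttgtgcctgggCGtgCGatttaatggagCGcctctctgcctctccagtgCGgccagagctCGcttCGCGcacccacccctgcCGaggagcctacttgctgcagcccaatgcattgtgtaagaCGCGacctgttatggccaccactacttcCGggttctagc
CG reads the same on both strands. Among 20018 protein-coding promoters of the same length the median was 18 CG dinucleotides, with quartiles of 7 and 27, and 97.1% held at least 1.

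Of the 20 tested genes that the study names for the response to Menin or DOT1L inhibition, 2 fell and none rose, and their median log2 fold change was −0.51 against −0.23 for all genes. With the replicate number in the model 4 of the 20 fell, beside 12.6% of all genes tested called lower in that model. The study chose these genes on samples of this series, so their count is not independent evidence of a direction. The second to fall was *MEF2C*, a MADS-box transcription factor of myeloid and lymphoid progenitors. It went from 237, 184 and 179 CPM in DMSO to 58.2, 15.2 and 8.98 CPM, and its groups did not overlap (log2 fold change −2.90, SE 0.70, adjusted p = 0.0278). Replicate 1 had the highest value of the 3. This call was lost when any DMSO library or withdrawal replicate 2 or 3 was left out (adjusted p between 0.0604 and 0.0964), and with the replicate number in the model it was −3.26 with an adjusted p of 8.55e-06. The other genes called in that model were *SSBP2*, a co-factor of LIM-homeodomain complexes (33.9, 55.5 and 32.0 CPM in DMSO and 6.74, 22.9 and 7.60 CPM after withdrawal, blocked adjusted p = 0.00893), and *HOXA10* (22.7, 35.8 and 36.7 CPM in DMSO and 9.19, 12.9 and 18.2 CPM after withdrawal, blocked adjusted p = 0.00997).

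Of genes of that list, *SOCS2* and *EMB* were higher after withdrawal than in the drug in the blocked model. *SOCS2*, a feedback inhibitor of cytokine signalling, was at 14.8, 21.7 and 21.5 CPM in DMSO, 2.07, 1.57 and 4.45 CPM in the drug, 3.92, 6.37 and 10.7 CPM at 48 h and 5.51, 22.4 and 17.7 CPM at 96 h after withdrawal. Its withdrawal and DMSO libraries overlapped, with a log2 fold change of −0.32 (adjusted p = 0.704). Relative to the drug-treated libraries it was 2.47 on the log2 scale, which was called only with the replicate number in the model (adjusted p = 0.054 and 0.0087). *EMB*, which encodes the cell-surface glycoprotein embigin, had 179, 286 and 206 CPM in DMSO, 80.9, 82.8 and 65.0 CPM in the drug and 108, 209 and 144 CPM after withdrawal, and was likewise higher than in the drug only in the blocked model (log2 fold change 0.96, adjusted p = 0.0373). *HOXA9* had low counts in both groups, at 2.79, 1.24 and 5.78 CPM in DMSO and 0, 0.693 and 1.38 CPM after withdrawal, a difference that did not pass the test (adjusted p = 0.286). The limit on reads of the *HOXA* cluster given below applies to this gene. The remaining 13 tested genes, among them *MSI2*, *PTPRC*, *JMJD1C* and *LPXN*, passed neither model. *ITGB5*, the integrin beta 5 subunit, had 55 reads in DMSO and none after withdrawal (at least 2.82-fold lower at the floor of 3 reads, adjusted p = 0.205), and the other 12 had log2 fold changes from −0.74 to 2.46.

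Across the *HOXA* cluster 10 of 11 genes were tested and 1 fell, with a median log2 fold change of −1.63. *HOXA6* had 328 reads in the DMSO libraries and 1 in the withdrawal libraries, a ratio of 50.5 (counting interval 9.0 to 2000), and was called at an adjusted p of 0.0345. It was not called without withdrawal replicate 1 (adjusted p = 0.113) or any other 1 of the 6 libraries (adjusted p at least 0.0539). The blocked model called 4 genes lower, adding *HOXA7* (5.72, 5.56 and 23.6 CPM in DMSO and 0, 0 and 1.61 CPM after withdrawal), *HOXA10*, and *HOXA5*, which had 161 reads in DMSO and none after withdrawal and was at least 8.26-fold lower at a floor of 3 reads over the group. Members of the cluster lie close together and overlap antisense transcripts, and the strand setting of the counts is not stated, so reads of neighbours cannot be told apart. Of 25 tested MLL-fusion targets 1 rose and 3 fell, beside 1.55% and 1.48% of all genes. In the blocked model 2 of them rose and 8 fell, beside 6.40% and 12.6% of all genes. The list's median was −0.03, and it was 0.24 when libraries were scaled by their totals alone and −0.54 without withdrawal replicate 1. *RUNX1*, a transcription factor of blood cell development, was the gene that rose, from 27.1, 23.5 and 32.1 to 104, 67.5 and 73.0 CPM (log2 fold change 1.56, SE 0.32, adjusted p = 0.00959). *DACH1*, a transcriptional co-repressor, fell from 30.8, 31.3 and 28.1 to 3.67, 9.93 and 3.45 CPM (adjusted p = 0.046, and 0.171 without replicate 1). This call was also lost without any 1 DMSO library or withdrawal replicate 3 (adjusted p at least 0.102). *PBX3*, another partner of MEIS1 and HOXA proteins, was called only in the blocked model (adjusted p = 0.0433). It was at 34.7, 40.2 and 35.2 CPM in DMSO, 4.73, 8.24 and 4.31 CPM in the drug and 14.7, 19.4 and 18.4 CPM after withdrawal, which placed all 3 withdrawal libraries between the other groups.

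**Figure D1:**
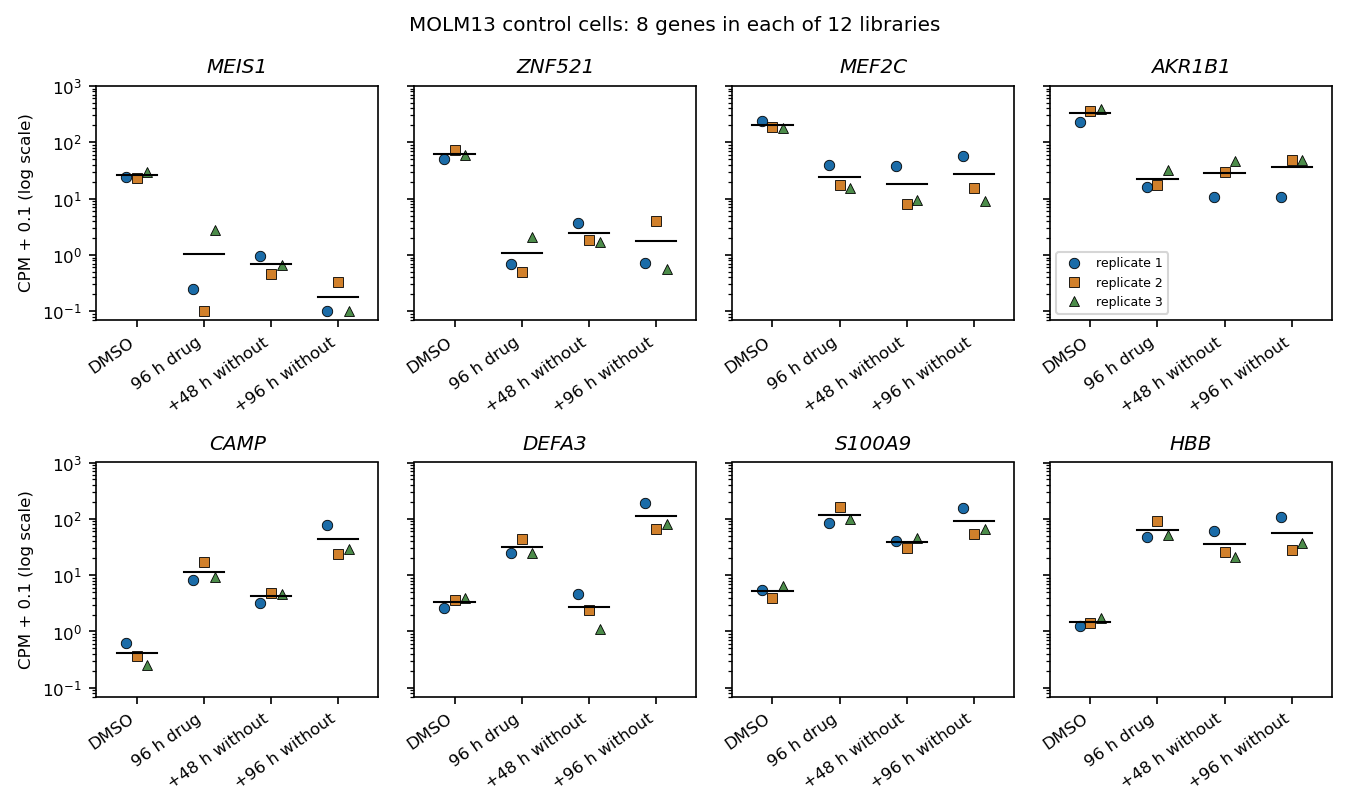
CPM plus 0.1, on a log scale, of 8 genes in each of the 12 MOLM13 control libraries (points, shaped by replicate number, and a line at the mean of each group). In the upper row every drug-exposed library lies below the 3 DMSO libraries, and in the lower row *CAMP*, *S100A9* and *HBB* lie above DMSO in all 9 drug-exposed libraries, whereas *DEFA3* at 48 h lies at 1.02 to 4.48 CPM, beside 2.47 to 3.79 CPM in DMSO.

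The other large falls were of genes with diverse functions. *ZNF521*, a zinc-finger protein of immature haematopoietic cells, was at 50.4, 73.3 and 59.9 CPM in DMSO and 0.612, 3.93 and 0.461 CPM after withdrawal (log2 fold change −5.07, SE 0.76, adjusted p = 0.000557). *SPIB*, an ETS factor of B and dendritic cells, went from 26.2, 21.5 and 32.0 to 0.612, 2.08 and 0.921 CPM (log2 fold change −4.34, adjusted p = 0.00437). All withdrawal libraries of both genes lay at or under 3.93 CPM. *AKR1B1*, aldose reductase, fell from 226, 366 and 392 to 10.4, 48.5 and 48.8 CPM (log2 fold change −3.17, adjusted p = 0.0166, and 0.0776 without replicate 1). This call was also lost without DMSO replicate 2 or 3 (adjusted p between 0.0545 and 0.0813). *IRF8*, a factor that directs monocyte and dendritic cell fate, fell from 309, 473 and 417 to 82.7, 125 and 111 CPM (log2 fold change −1.91, SE 0.39, adjusted p = 0.00959, and 0.0928 without DMSO replicate 2). Its levels in the drug, 41.1, 36.9 and 39.8 CPM, were lower than in every withdrawal library, and the blocked model called it higher after withdrawal than in the drug (log2 fold change 1.39, adjusted p = 0.0123). The remaining 8 of the 12 largest falls were *H1-3*, a linker histone, *MCUB*, a subunit of the mitochondrial calcium channel, *GABRA4*, a GABA receptor subunit, *GPR84*, a receptor for medium-chain fatty acids, *IGLL5*, a gene that overlaps the lambda light chain locus, *OAF*, *RAB11B-AS1* and *MEF2C*, with log2 fold changes from −4.63 to −2.80. *RAB11B-AS1* is an antisense gene whose reads cannot be told from those of *RAB11B* without strand.

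Among the 11 largest rises shown were 2 granule genes, *CAMP* and *DEFA3*, and 3 globins. *CAMP*, the cathelicidin antimicrobial peptide of secondary granules, was at 0.530, 0.270 and 0.149 CPM in DMSO and 77.8, 24.0 and 29.5 CPM after withdrawal, a 129-fold rise (log2 fold change 7.01, SE 0.72, adjusted p = 7.82e-06). Its levels were 8.13, 16.9 and 9.18 CPM in the drug and 3.08, 4.77 and 4.54 CPM 48 h after withdrawal, so that each of the 3 libraries at 96 h stood above all earlier ones. *DEFA3*, a neutrophil defensin of primary granules, was at 2.47, 3.51 and 3.79 CPM in DMSO and 195, 64.9 and 79.9 CPM after withdrawal (log2 fold change 5.11, SE 0.69, adjusted p = 0.000127). In between it was at 24.5, 44.3 and 24.5 CPM in the drug and 4.48, 2.30 and 1.02 CPM at 48 h, a difference that was not tested. Reads of *DEFA3* may be shared with its near-identical copies *DEFA1* and *DEFA1B*. In both genes replicate 1 was the highest of the 3 withdrawal libraries, and without it the log2 fold changes were 6.32 and 4.47 (adjusted p = 2.9e-05 and 0.000521).

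Of 15 tested secondary and tertiary granule genes 7 rose and none fell, with a median log2 fold change of 3.09 against −0.23 for all genes. Without withdrawal replicate 1, 5 rose, and in the blocked model 9 rose, beside 0.620% and 6.40% of all genes. Besides *CAMP*, the risers were *LTF*, *LCN2*, *PGLYRP1*, *CYBB*, *HP* and *CSF3R*. *LTF*, which encodes the iron-binding protein lactoferrin, had 2 reads in the 3 DMSO libraries and 76 in the 3 withdrawal libraries, at 17.1, 6.47 and 4.61 CPM, a ratio of pooled CPM of 247 (counting interval 66.0 to 2075, adjusted p = 0.000103). *LCN2*, a siderophore-binding lipocalin, had 1 and 30 reads (ratio 195, 32.4 to 7950). *PGLYRP1*, a peptidoglycan-binding protein, had 1 and 19 reads (ratio 123, 19.6 to 5128), and its call was lost without replicate 1 (adjusted p = 0.052). *CYBB*, the catalytic subunit of the phagocyte NADPH oxidase, was at 1.84, 2.10 and 1.1 CPM in DMSO, 118, 49.4 and 46.5 CPM in the drug and 62.5, 21.9 and 18.4 CPM after withdrawal. The highest DMSO library, at 2.10 CPM, was thus far below the lowest withdrawal library, at 18.4 CPM. *HP*, haptoglobin, rose from 2.72, 3.94 and 3.99 to 20.2, 120.4 and 112 CPM, with replicate 1 the lowest of its group. Its call was lost without any 1 DMSO library (adjusted p between 0.0568 and 0.0623). *CSF3R*, the receptor of granulocyte colony-stimulating factor, rose from 36.5, 36.3 and 39.5 to 127, 72.8 and 112 CPM (log2 fold change 1.47, adjusted p = 0.0196, and 0.0747 without replicate 1). The promoters of *LTF* and *S100A9*, 2 risers whose response differed in the knockout (below), are given in the same form as that of *MEIS1*, at chr3:46464906-46465155 on the minus strand, with 10 CG dinucleotides, and at chr1:153357604-153357853 on the plus strand, with 4.
LTF: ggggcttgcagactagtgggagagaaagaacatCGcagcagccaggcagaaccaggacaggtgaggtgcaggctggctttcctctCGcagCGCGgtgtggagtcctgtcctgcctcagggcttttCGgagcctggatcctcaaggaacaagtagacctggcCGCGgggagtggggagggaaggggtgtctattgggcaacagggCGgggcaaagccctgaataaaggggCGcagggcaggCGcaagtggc
S100A9: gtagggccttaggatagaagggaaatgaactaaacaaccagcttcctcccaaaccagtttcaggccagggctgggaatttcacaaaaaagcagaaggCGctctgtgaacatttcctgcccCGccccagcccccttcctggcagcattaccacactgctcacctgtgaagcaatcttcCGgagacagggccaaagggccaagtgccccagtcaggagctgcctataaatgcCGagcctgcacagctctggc

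Of 12 tested primary granule genes 4 rose and none fell, with a median log2 fold change of 1.17. *BPI*, a bactericidal protein that binds endotoxin, rose from 0.777, 1.35 and 1.54 to 13.5, 25.9 and 41.2 CPM (log2 fold change 4.47, SE 0.60, adjusted p = 0.000127). *MPO*, myeloperoxidase, rose from 24.7, 30.6 and 32.6 to 91.9, 94.7 and 102 CPM (log2 fold change 1.72, adjusted p = 0.0136, and between 0.0546 and 0.0746 without DMSO replicate 1 or 3). It had been higher in the drug, at 185, 191 and 238 CPM, and the blocked model called it lower after withdrawal than in the drug (log2 fold change −1.08, adjusted p = 0.0251). *LYZ*, lysozyme, was at 505, 1058 and 634 CPM in DMSO and 1083, 9724 and 4908 CPM after withdrawal (log2 fold change 2.84, adjusted p = 0.0369). Its replicate 1 was close to the highest DMSO library and replicates 2 and 3 were well above it. The call was lost when any DMSO library or withdrawal replicate 2 or 3 was left out (adjusted p between 0.0539 and 0.138). Other genes of these granules stayed unseen: *AZU1*, *DEFA4* and *ELANE* were at 0 in the DMSO and withdrawal libraries. A count of 0 allows up to 3 reads, which is 0.691 to 1.84 CPM in a withdrawal library, and such limits cover counting error only. Genes of other lists, such as *HLA-E*, *TAP1* and *RING1*, had no read in any control library either. Whether such zeros reflect expression or the way reads were counted was not tested.

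Of 8 S100 genes tested 3 rose: *S100A8*, *S100A9* and *S100A12*, calcium-binding proteins abundant in neutrophils and monocytes. *S100A9* was at 5.44, 3.83 and 6.23 CPM in DMSO, 83.3, 162 and 99.9 CPM in the drug, 39.5, 30.4 and 44.9 CPM at 48 h and 154, 54.5 and 66.6 CPM at 96 h after withdrawal (log2 fold change from DMSO 4.14, SE 0.43, adjusted p = 7.82e-06). *S100A8* went from 4.10, 2.81 and 4.68 to 162, 40.0 and 65.6 CPM and *S100A12* from 0.177, 0.0539 and 0.249 to 20.2, 9.70 and 6.45 CPM. The groups did not overlap for any of the 3 genes, and their calls held without replicate 1. Of 24 monocyte and macrophage genes 4 rose and 1 fell, and the median was 0.53. *FCN1*, a lectin of monocytes, rose from 0.141, 0.108 and 0.0996 to 7.35, 3.00 and 2.99 CPM (log2 fold change 5.08, adjusted p = 0.00642). *TLR4*, the endotoxin receptor, rose to 7.35, 9.93 and 13.1 CPM from 2.22, 2.59 and 1.99 CPM, and *CD36*, a scavenger receptor, to 6.12, 19.9 and 10.6 CPM from 1.62, 5.61 and 2.14 CPM. The call for *TLR4* was lost without any one DMSO library or withdrawal replicate 3 (adjusted p between 0.0668 and 0.113), and that for *CD36* without DMSO replicate 1 or 3 or withdrawal replicate 2 or 3 (adjusted p between 0.0555 and 0.163). *ANPEP* (CD13) rose from 0.106, 0.162 and 0.149 CPM to 1.22, 0.462 and 2.30 CPM, a call lost without replicate 1 (adjusted p = 0.0956). *IRF8*, described above, was the gene that fell.

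Among adhesion genes *PECAM1* (CD31) rose from 9.71, 15.3 and 18.6 to 75.9, 94.0 and 67.0 CPM (log2 fold change 2.44, SE 0.38, adjusted p = 0.000859), and *CD44*, the hyaluronan receptor, fell from 42.1, 60.8 and 61.9 to 28.2, 10.9 and 6.68 CPM (log2 fold change −1.90, adjusted p = 0.0157). They were the 2 genes called of 15 tested, and the call for *CD44* was lost without DMSO or withdrawal replicate 2 or 3 (adjusted p between 0.0563 and 0.108). The blocked model called 6 higher and 1 lower, beside 6.40% and 12.6% of all genes tested. Among the higher ones was *ITGAM* (CD11b) at 1.38, 0.863 and 0.498 CPM in DMSO and 10.4, 2.77 and 2.53 CPM after withdrawal (blocked adjusted p = 0.0256, and 0.162 without replicate 1). Of 4 clade B serpins, *SERPINB10* rose from 1.24, 1.35 and 0.399 to 3.06, 31.4 and 16.8 CPM and *SERPINB2* to 1.84, 5.55 and 4.15 CPM from 0, 0.270 and 0.0996 CPM, a call lost without any one DMSO library or withdrawal replicate 3 (adjusted p between 0.0505 and 0.126). *CISH*, a STAT5-induced inhibitor of cytokine signalling, was the gene called of 13 in its list, at 10.8, 9.39 and 7.92 CPM in DMSO and 30.6, 22.4 and 23.5 CPM after withdrawal (adjusted p = 0.0451, and 0.154 without replicate 1). This call was also lost without any 1 DMSO library or withdrawal replicate 3 (adjusted p between 0.0622 and 0.161). Of 20 myeloid transcription factors *IRF8* alone was called. The blocked model called 1 higher and 3 lower, beside 6.40% and 12.6% of all genes tested. The lower ones were *IRF8*, *KLF6* (78.6, 91.5 and 111 CPM in DMSO and 21.4, 52.7 and 61.5 CPM after withdrawal, blocked adjusted p = 0.0184) and *ID2* (39.1, 47.9 and 21.5 CPM in DMSO and 14.1, 15.9 and 17.5 CPM after withdrawal, blocked adjusted p = 0.0166). The higher one was *CEBPE*, a factor of late granulocyte maturation, which overlapped between groups at 3.50, 5.39 and 12.7 CPM in DMSO and 6.74, 32.1 and 65.4 CPM after withdrawal but was higher in each same-numbered pair (blocked log2 fold change 2.14, adjusted p = 0.000505).

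Globin genes rose as well. In bulk libraries more cells of a type and more RNA per cell cannot be told apart. *HBB*, beta-globin, was at 1.13, 1.29 and 1.64 CPM in DMSO and 107, 27.5 and 36.6 CPM after withdrawal (log2 fold change 5.37, SE 0.65, adjusted p = 6.14e-05), and at 47.5, 93.0 and 52.2 CPM in the drug. After withdrawal it was highest in the shallowest library, replicate 1 (1717921 reads), and in the drug likewise in replicate 2 (1918125 reads). The same held for *CAMP*, *DEFA3*, *S100A9*, *LTF* and *S100A12*, but not for *BPI* and *MPO*, nor in the drug for *CYBB*. At 48 h *DEFA3* and *S100A12* were highest in the shallowest library, replicate 1, and *CAMP*, *S100A9* and *LTF* were not. The part of depth in these levels was not tested. *HBA2*, alpha-globin, rose from 1.48, 1.08 and 1.15 to 90.0, 24.5 and 32.7 CPM. Of 8 tested erythroid genes 5 rose, all of them globins (*HBB*, *HBA1*, *HBA2*, *HBG1* and *HBG2*), and 3 rose without replicate 1. The blocked model called 6 of the 8 higher, beside 6.40% of all genes tested. The alpha-globin pair and the gamma-globin pair are near-identical, so how reads divide between their members is uncertain. The summed level of the 17 erythroid genes was 121 to 148 CPM in DMSO, 180 to 242 CPM in the drug and 165 to 375 CPM after withdrawal. Other genes of red cells had few reads. *SLC4A1* had none in the DMSO and withdrawal libraries. *KLF1* had 1 read in DMSO and 11 after withdrawal (ratio 71.5, counting interval 10.4 to 3076), at 3.67, 0.693 and 0.461 CPM. *GATA1* had 3 and 9 (19.5, 4.86 to 112), at 3.06, 0.231 and 0.691 CPM, and the highest values of both came from replicate 1. *AHSP* had 0 and 6 (at least 13.0-fold higher at the floor of 3 reads), *HBZ* 2 and 11 (35.7, 7.80 to 332) and *HBE1* 10 and 2 (1.30, 0.138 to 6.10). Of markers of other lineages, none of 5 tested B-lymphoid genes was called, the 8 megakaryocyte genes were too low to test, and of 5 T and NK cell genes *GNLY*, granulysin, was called with 1 read in DMSO and 25 after withdrawal (ratio 162, 26.6 to 6667). It was not called without replicate 1 (adjusted p = 0.101) or any 1 DMSO library (adjusted p between 0.0931 and 0.159).

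Others among the largest rises were *RETN*, the myeloid hormone resistin (0.106, 0.108 and 0.349 CPM in DMSO and 29.4, 8.78 and 28.6 CPM after withdrawal), *MEGF6*, which encodes a protein with epidermal growth factor-like repeats (1.87, 1.19 and 1.15 CPM in DMSO and 72.9, 16.9 and 60.6 CPM after withdrawal), *ROS1*, a receptor tyrosine kinase (0.177, 0.432 and 0 CPM in DMSO and 38, 2.77 and 5.76 CPM after withdrawal), *HEXD-IT1*, a transcript inside *HEXD* whose reads may belong to that gene, and the uncharacterised LOC107986350. Replicate 1 had by far the highest *ROS1* level of the withdrawal libraries, and without it the log2 fold change was 4.35 instead of 6.14. Of the 23 genes shown with the largest changes, 11 rises and 12 falls, 18 were called without withdrawal replicate 1, the others being *AKR1B1*, *GPR84*, *H1-3*, *HEXD-IT1* and LOC107986350 (adjusted p between 0.0776 and 0.277). The counts were 17, 16 and 16 of 23 without DMSO replicate 1, 2 or 3, and 22 and 18 without withdrawal replicate 2 or 3. All 23 had the same direction in each of these fits. They were chosen on these libraries for groups that do not overlap, so the shared direction follows from that choice. All 23 were called in the blocked model of all 24 libraries, but 7 were when it was fitted to the withdrawal and DMSO libraries of control cells alone.

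**Figure D2:**
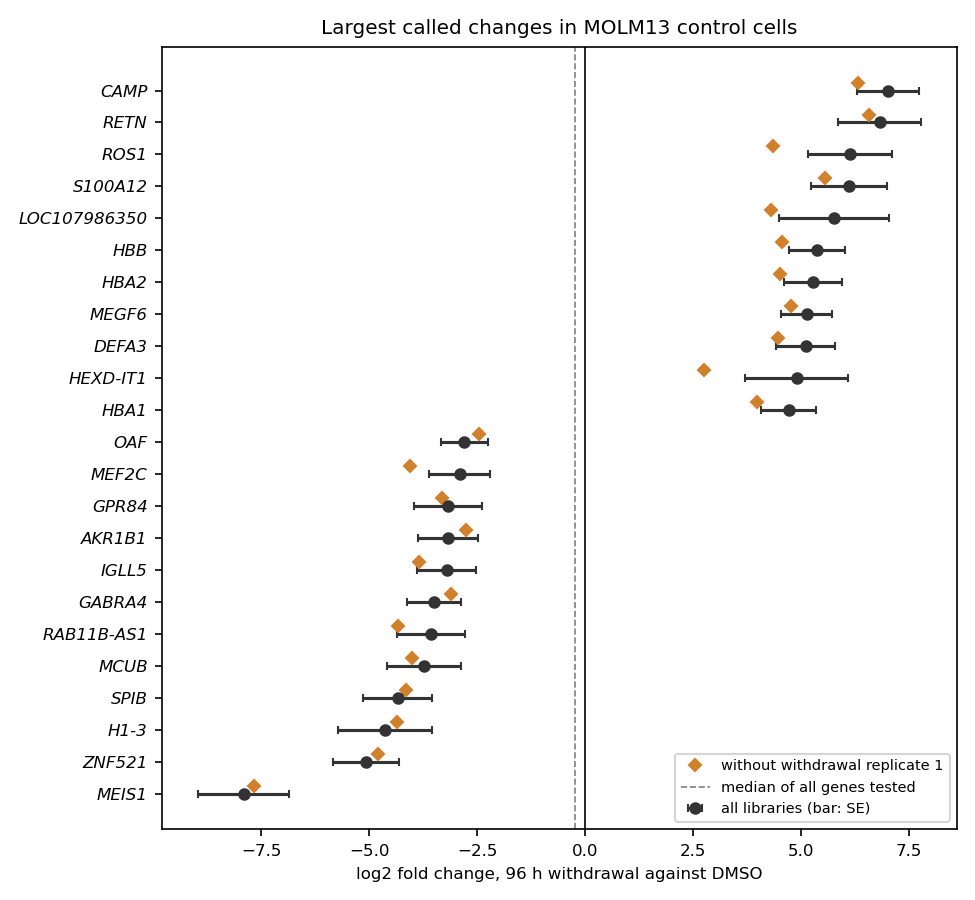
Log2 fold change between 96 h withdrawal and DMSO of 11 of the largest rises and the 12 largest falls (points, with bars of 1 SE), and the same without withdrawal replicate 1 (diamonds), with a dashed line at the median of all genes tested (−0.23). *ROS1* and *HEXD-IT1* move the most towards 0 without that library, and *MEF2C* moves away from 0.

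Lists of genes of growth had negative medians, although few of their members passed the test without the replicate number. Of 32 genes of DNA replication and mitosis none rose and 2 fell, *MCM7*, a subunit of the replicative helicase (494, 620.2 and 731 CPM in DMSO and 118, 179 and 216 CPM after withdrawal, adjusted p = 0.0278), and *AURKA*, a mitotic kinase (152, 184 and 169 CPM in DMSO and 34.3, 72.3 and 79.7 CPM after withdrawal, adjusted p = 0.0457). Both calls were lost without replicate 1 (adjusted p = 0.118 and 0.202). That for *AURKA* was lost without any 1 of the 6 libraries (adjusted p between 0.0539 and 0.202). *MCM7* was also lost without withdrawal replicate 2 or DMSO replicate 2 or 3 (adjusted p between 0.0633 and 0.139). The list's median was −0.88 (−0.61 with scaling by totals), and 17 of the 32 genes had all withdrawal libraries below all DMSO libraries, as had 19.5% of all genes tested. The blocked model called 14 lower and none higher, beside 12.6% and 6.40% of all genes. *MKI67* and *TOP2A*, which are also used as proliferation markers, were not called. *MKI67* was at 168, 151 and 175 CPM in DMSO and 337, 128 and 172 CPM after withdrawal (adjusted p = 0.597). *TOP2A* was at 171, 149 and 147 CPM in DMSO and 692, 155 and 163 CPM after withdrawal (adjusted p = 0.317), and replicate 1 was the highest withdrawal library for both. Of 9 D cyclins, their kinases and inhibitors none was called and 5 were lower in the blocked model, such as *CCND3* (337, 443 and 382 CPM in DMSO and 215, 133 and 134 CPM after withdrawal, blocked adjusted p = 0.00714), with a list median of −1.57.

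Of 18 genes of ribosome biogenesis and MYC none rose and 1 fell, *RRP9*, a component of the U3 small nucleolar ribonucleoprotein (228, 254 and 237 CPM in DMSO and 66.1, 82.5 and 66.8 CPM after withdrawal, adjusted p = 0.0361, and 0.121 without replicate 1). The call for *RRP9* was lost without any 1 of the 6 libraries (adjusted p between 0.0667 and 0.176). The blocked model called 8 of the 18 lower, beside 12.6% of all genes, and the median of the list was −0.85. *MYC*, the transcription factor that drives this programme, was at 224, 352 and 207 CPM in DMSO, 25.1, 58.4 and 47.4 CPM in the drug, 52.1, 159 and 98.4 CPM at 48 h and 72.3, 187 and 110.3 CPM at 96 h after withdrawal. The blocked model called it lower than in DMSO (log2 fold change −1.16, adjusted p = 0.00809) and higher than in the drug (log2 fold change 1.46, adjusted p = 0.00975), and the model without the replicate number called neither. Targets of ATF4, the factor that induces amino acid synthesis, had 4 falls and no rise among 19 tested and a median of −1.30. *PSAT1* and *PSPH*, enzymes of serine synthesis, went from 254, 469.9 and 351 to 38, 81.6 and 79.9 CPM (log2 fold change −2.42, SE 0.40, adjusted p = 0.00165) and from 132, 201 and 174 to 75.9, 69.3 and 61 CPM (adjusted p = 0.042). *TRIB3*, a pseudokinase, and *GPT2*, a transaminase, fell as well (log2 fold change −1.92 and −1.61, adjusted p = 0.00478 and 0.0121). The call for *GPT2* was lost without DMSO replicate 2 or 3 (adjusted p between 0.0657 and 0.0677). Without replicate 1 *PSPH* was no longer called (adjusted p = 0.0945), nor without any other 1 of the 6 libraries (adjusted p between 0.0636 and 0.239). The blocked model called 9 ATF4 targets lower and 1 higher, beside 12.6% and 6.40% of all genes tested. The higher one was *SLC7A11*, the cystine transporter (21.2, 21.3 and 17.5 CPM in DMSO and 31.2, 30.7 and 44.2 CPM after withdrawal).

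No gene of the lists of PRC1.1 subunits (8 tested), PRC2 subunits (10), MLL and DOT1L complexes (13), stem and progenitor genes (7), MHC class II (4) and class I (2), interferon response (20), NF-kB inflammation (13), apoptosis (14), p53 targets (12), cholesterol synthesis (17) or lysosome (22) was called in the model without the replicate number. Their medians lay between −0.55 (apoptosis) and 0.77 (inflammation). Several members of these lists, among them *HLA-E*, *TAP1*, *TNF* and *RING1*, had no read in any control library and could not be judged. Beside 6.40% of all genes called higher and 12.6% called lower in the blocked model, that model called 5 apoptosis genes lower and none higher, among them *BBC3* and *PMAIP1*, which encode the pro-apoptotic proteins PUMA and NOXA (26.9, 23.2 and 18.0 CPM in DMSO and 12.2, 6.01 and 5.53 CPM after withdrawal, and 84.6, 121 and 71.6 CPM in DMSO and 14.7, 61.2 and 38.9 CPM after withdrawal). It called 3 interferon genes higher and none lower, 1 inflammation gene higher and 2 lower, 2 lysosome genes in each direction, 2 p53 targets and 1 MHC class II gene lower, and no MHC class I gene. Each of the 5 other lists had 1 gene called in each direction. None of 13 mitochondrially encoded genes was called, while the blocked model called 6 higher. Their median log2 fold change was 1.65 with all libraries and 0.01 without withdrawal replicate 1.

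**Figure D3:**
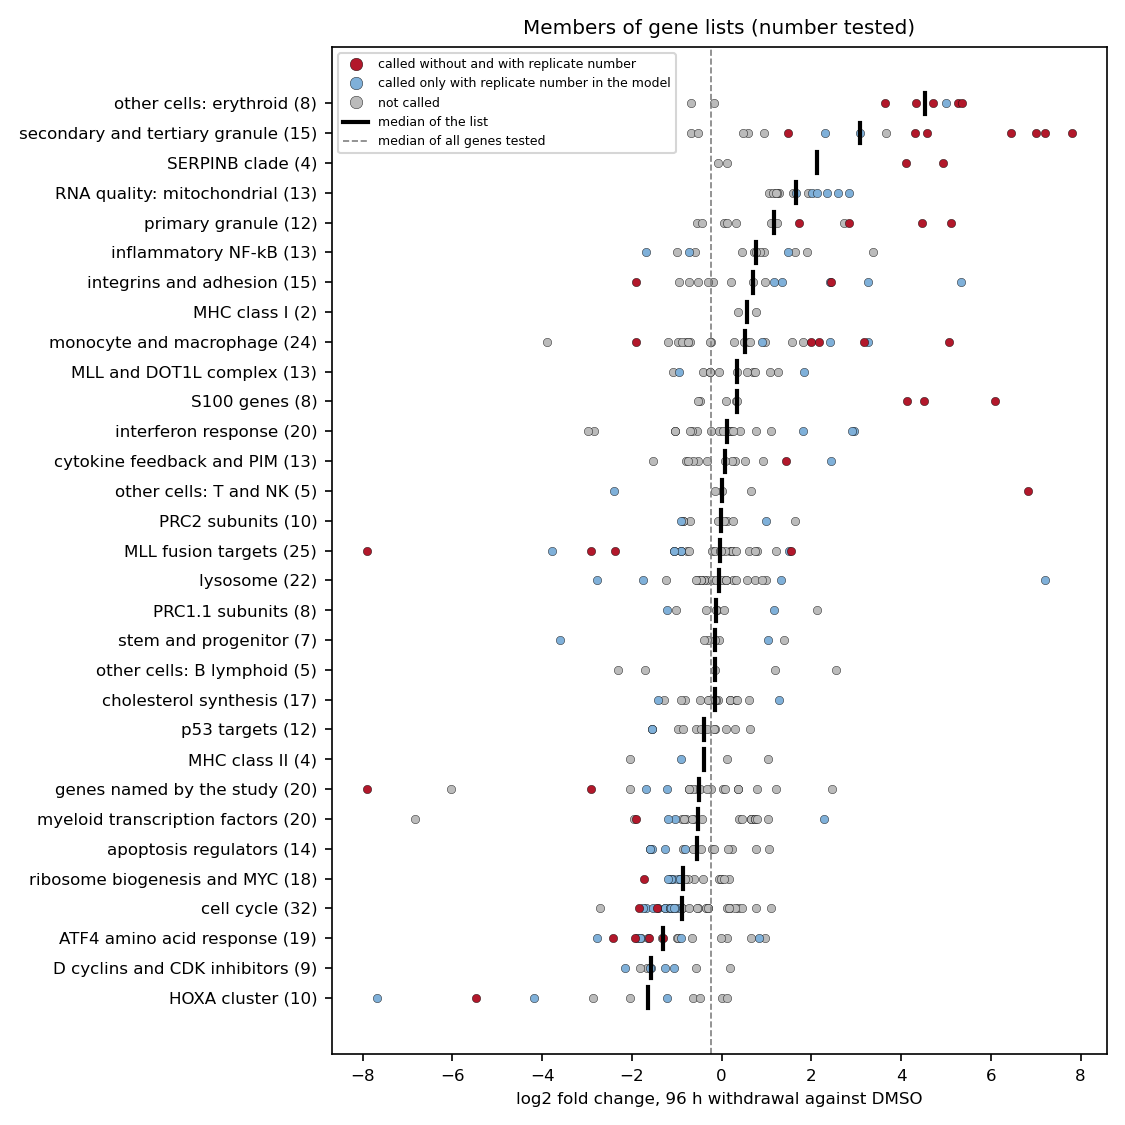
Log2 fold change between 96 h withdrawal and DMSO of each tested member of 31 gene lists (points, coloured by whether the gene was called), with the median of each list (bars) and of all genes (dashed line, −0.23). The erythroid and secondary granule lists have the highest medians, 4.53 and 3.09, and the *HOXA* cluster and the D cyclin list the lowest, −1.63 and −1.57.

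Withdrawal was also set against the 3 libraries taken with the drug still present, a comparison that shares the withdrawal libraries with that against DMSO. Without the replicate number 5 genes were lower after withdrawal (0.0392% of those tested) and none was higher, although 901 higher genes had an unadjusted p under 0.05, and DESeq2 called 447 genes in all. They were *TMCO3*, *FADS2*, a fatty acid desaturase, *TXNIP*, a thioredoxin-binding protein that limits glucose uptake, *PPP1R12B*, a myosin phosphatase subunit, and *GABPB1-IT1*, a transcript inside *GABPB1* that cannot be told from it without strand. *TMCO3* had 39, 46.3 and 37.2 CPM in the drug and 5.51, 7.62 and 9.67 CPM after withdrawal (log2 fold change −2.40, SE 0.35, adjusted p = 0.00521), below its DMSO level of 11.3, 13.8 and 14.8 CPM. *TXNIP* had 121, 69.8 and 67.0 CPM in the drug, 40.3, 39.3 and 43.5 CPM at 48 h and 20.2, 15.5 and 12.4 CPM at 96 h (log2 fold change from the drug −2.43, adjusted p = 0.0284), and its DMSO libraries, at 10.8, 18.5 and 17.6 CPM, overlapped those of withdrawal. All 5 were called without withdrawal replicate 1, when 260 genes were (2.04%), and in the blocked model. None was called without drug replicate 2 or withdrawal replicate 2, when no gene was, and the count of calls was 1 without drug replicate 1 and 2 without withdrawal replicate 3.

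With the replicate number in the model 633 genes differed from the drug-treated libraries (4.97%), 345 higher (2.71%) and 288 lower (2.26%). Those higher included *MYC*, *IRF8*, *SOCS2*, *PBX3*, *PSAT1* and *PSPH*, which had fallen in the drug (log2 fold change from DMSO −2.58, −3.35, −2.78, −2.71, −3.71 and −2.73, adjusted p at most 0.00166), and *CAMP* and *DEFA3*, which had risen in it (5.06 and 3.25). Relative to the drug *CAMP* was higher by 1.93 and *DEFA3* by 1.87 on the log2 scale (blocked adjusted p = 0.0372 and 0.0335). *MEIS1* was not called against the drug in either model (log2 fold change −3.36, adjusted p = 0.206, blocked 0.124). The drug-treated libraries against DMSO, which share the DMSO libraries with the comparison above, had 3072 calls (24.1%), 1221 higher (9.58%) and 1851 lower (14.5%), so that 39.7% were higher. With scaling by totals 3111 genes (24.4%) were called, 73.9% of them higher, and the median of all genes moved from 0.03 to 0.57, so the balance of directions there depended on the scaling.

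Genes could also be chosen without any of these libraries. In another experiment of the series MOLM13 control cells received 500 nM VTP50469 for 48 h. Its DMSO libraries are labelled 72 h, so drug and time in culture cannot be told apart there. Of the genes that fell there by more than 0.5 on the log2 scale with a call, 411 of 477 were found and tested here. After withdrawal 28 of them were lower (6.8%, against 1.48% of all genes) and none was higher. In the blocked model 132 were lower (32.1%, against 12.6% of all genes) and 10 higher (2.4%, against 6.40%). The median log2 fold change of the 411 was −0.81 (quartiles −1.45 and −0.19) from DMSO, against −0.23 for all genes, and 0.41 from the drug. Of the genes that had risen in that experiment 571 of 664 were tested here, of which 77 were higher (13.5%, against 1.55% of all genes) and none lower. In the blocked model 146 were higher (25.6%, against 6.40% of all genes) and 23 lower (4%, against 12.6%). The median of the 571 was 0.54 (quartiles −0.16 and 1.46) from DMSO and −0.24 from the drug. At the end of the drug the medians of the 2 lists from DMSO were −1.30 and 0.97. With scaling by totals the medians after withdrawal were −0.54 and 0.83, beside 0.03 for all genes. Without withdrawal replicate 1, 15 of the first list were lower (3.6%, against 0.416% of all genes) and 49 of the second higher (8.6%, against 0.620%).

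**Figure D4:**
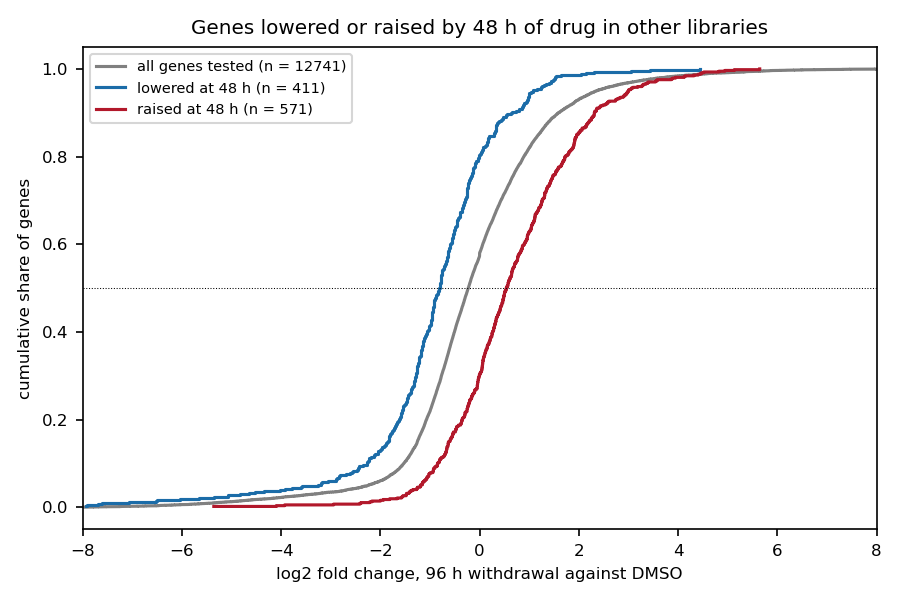
Cumulative share of genes by their log2 fold change between 96 h withdrawal and DMSO, for all 12741 genes tested, the 411 genes lowered and the 571 genes raised by 48 h of VTP50469 in other MOLM13 libraries. The curve of the lowered genes lies to the left of that of all genes and the curve of the raised genes to the right, with medians of −0.81, −0.23 and 0.54.

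The same withdrawal in PCGF1/BCOR KO cells allowed the difference between the responses to be tested as an interaction. The 3′ reads do not show whether the guides edited *PCGF1* or *BCOR*, so the knockout rests on the label. A difference was called for 11 genes (0.0863% of those tested), 1 of them higher (0.00785%) and 10 lower (0.0785%) in the knockout relative to the control response. *MEIS1* was the higher one, with 24.1, 22.1 and 25.9 CPM in knockout DMSO libraries and 10.5, 19.8 and 19.1 CPM after withdrawal, where control cells held a single read (interaction, on the log2 scale, 7.35, SE 1.25, adjusted p = 0.00685). The knockout withdrawal libraries lay below the knockout DMSO libraries, yet far above the control withdrawal libraries. The lower ones were *S100A8*, *S100A9*, *S100A12*, *CAMP*, *LTF*, *DEFA3*, the 3 globins *HBB*, *HBA1* and *HBA2*, and *DNASE2*, a lysosomal nuclease. *CAMP* was at 1.08, 0.510 and 0.704 CPM in knockout DMSO and 0.784, 1.14 and 1.59 CPM after withdrawal (interaction −6.43, adjusted p = 0.000578), and *S100A9* at 12.6, 6.52 and 10.5 CPM in DMSO and 4.88, 4.13 and 6.04 CPM after withdrawal (interaction −5.12, adjusted p = 3.19e-05). The withdrawal libraries of the knockout overlapped its DMSO libraries for *CAMP* and lay below them for *S100A9*.

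For the globins the knockout DMSO libraries were already high. *HBB* was at 37.6, 38.6 and 47.6 CPM there, against 1.13, 1.29 and 1.64 CPM in control DMSO, and at 5.4, 6.40 and 11.0 CPM after withdrawal (interaction −7.81, SE 0.86, adjusted p = 3.19e-05). *DNASE2* was at 4.87, 4.80 and 5.08 CPM in control DMSO and 12.2, 13.6 and 9.21 CPM in control withdrawal, and in the knockout at 83.5, 104 and 89.3 CPM in DMSO and 41.5, 49 and 46.9 CPM after withdrawal (interaction −2.25, adjusted p = 0.0182). The knockout was thus higher than the control in both conditions for *DNASE2*, and its values moved in the opposite direction. The knockout withdrawal libraries held 6729733 to 10139313 reads, with 2.97% to 8.01% mitochondrial reads, so none resembled control withdrawal replicate 1 in that share. Without that library 10 differences were called (0.0785%), and 18 with the replicate number in the model (0.141%).

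**Figure D5:**
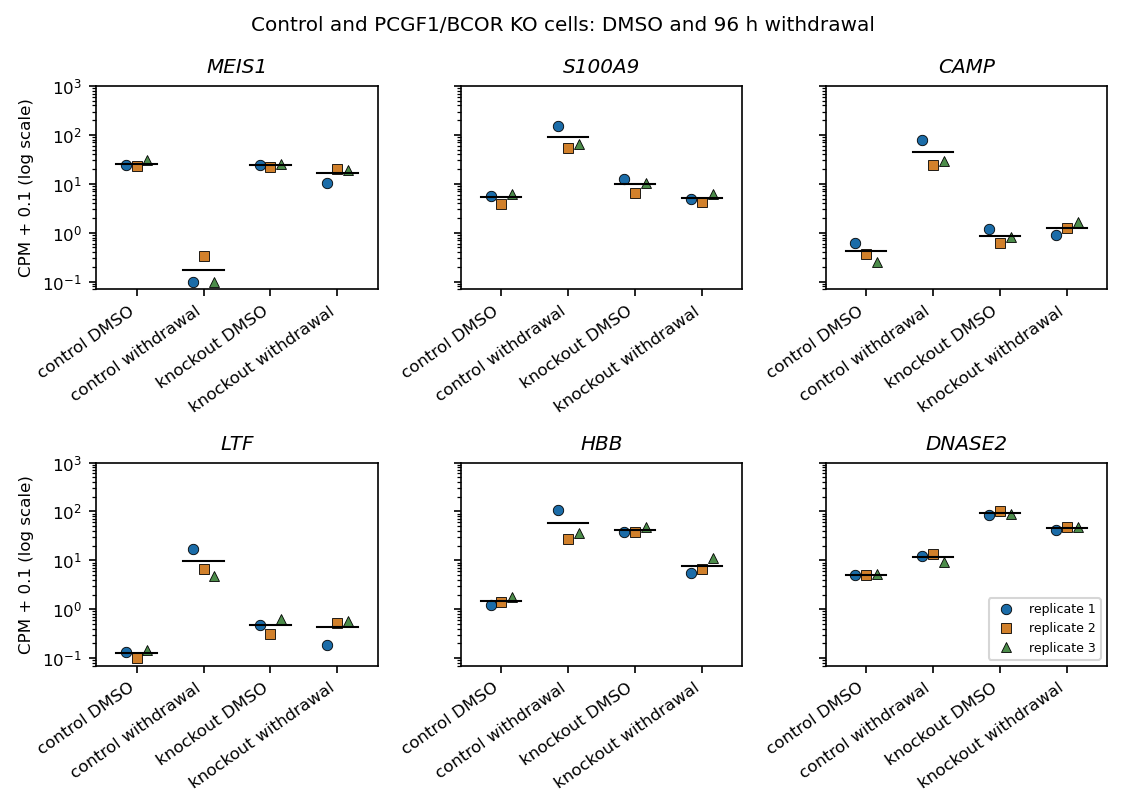
CPM plus 0.1, on a log scale, of 6 genes with a called difference in response, in control and PCGF1/BCOR KO cells with DMSO and 96 h after withdrawal (points, shaped by replicate number, and a line at the mean of each group). *MEIS1* is near the floor only in control withdrawal libraries, and *S100A9*, *CAMP* and *LTF* are high only there, while *HBB* and *DNASE2* are already higher in knockout than in control DMSO libraries.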

How the data were processed

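Counts per gene for 24 MOLM13 washout libraries (8 groups of 3) were taken as deposited. The authors trimmed the 3′ Pool-seq reads with bbmap, aligned them to GRCh38 and made the counts with the gene counting of STAR. The GEO protocol also names a Lexogen 3′ kit, without saying for which samples. Strand settings are not given in the sources used here. Reads named to no gene took under 0.001% of this table and stayed out of library sizes, and 8 K562 columns were not used here. Columns were tied to samples by the labels.

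The 12741 genes that reached 2 CPM in 2 or more libraries were fitted with edgeR 4.0.16 in R 4.3.3 (quasi-likelihood test, TMM, all 24 libraries sharing 1 dispersion trend, no replicate term), and genes with a Benjamini-Hochberg adjusted p under 0.05 were called. Deviations from group means correlated between same-numbered withdrawal and DMSO libraries (r = 0.300, 0.602 and 0.411 over 5565 genes) and between withdrawal and drug libraries (0.713, 0.496 and 0.783), so the numbers were taken to pair the libraries, and the fit with the replicate number is called the blocked model. The labels do not state what a number marks. SE are on the log2 scale, and intervals for genes with few reads are exact 95% intervals that cover counting error only. The fit was tested on simulated counts for this comparison (12741 genes): it recovered 0% of changes of 1, 37.9% of 2 and 97% of 4 on the log2 scale, with 1 false call. Changes were placed only in genes with a mean of at least 10 CPM. The simulated counts had the same spread in every group, no replicate effect and no outlying library. The error rate in the real libraries, which differ in these points, was therefore not measured.

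Genes responding to 48 h of drug came from a separate table of counts that the authors deposited (27 libraries), fitted alone and matched by gene name. There, 36.3% to 48.6% of counts name no gene and stayed out of its library sizes. Named were the 12 largest rises and 12 largest falls (called, mean of at least 10 CPM in the higher group, no overlap), genes the study names, up to 4 called members of each list with the smallest p, members of other-cell lists at 0, up to 6 genes in each direction against the drug and 4 against the knockout. Genes named from the blocked model and others outside this rule were chosen after their values were seen. A gene that met the rule is not reported here. The libraries and 32 lists were chosen with earlier results of these data known. Alternatives comprised other filters and scaling, DESeq2 1.42.0, limma 3.58.1 (voom), only the groups compared, thinning to the shallowest library and leaving out each library. Sequences are from GRCh38 with GENCODE 44.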

Additional observations from a re-analysis of the deposited data

Results flagged for a closer look

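The response to withdrawal differed between control and PCGF1/BCOR KO cells for 11 genes, by the interaction term of the edgeR fit across 12741 genes. The values are the log2 response of the knockout minus that of the control, each from 3 withdrawal and 3 DMSO libraries. *MEIS1* had 7.35 (SE 1.25, adjusted p = 0.00685), with a control response of −7.90. The granule genes *LTF*, *CAMP* and *DEFA3* had −8.08, −6.43 and −6.20, with control responses of 7.81, 7.01 and 5.11. Of these, *LTF* rested on 2 reads in control DMSO and 76 in control withdrawal. The S100 genes *S100A12*, *S100A9* and *S100A8* had −5.97, −5.12 and −4.64 (adjusted p = 0.0299, 3.19e-05 and 0.00573). The difference for *S100A12* was called in 15 of 38 other settings, those for *S100A9* and *S100A8* in 38 and 33. The globins *HBB*, *HBA2* and *HBA1* had −7.81, −7.54 and −6.39, and were higher in knockout than in control DMSO libraries before any drug. *DNASE2* had −2.25 (SE 0.41, adjusted p = 0.0182), with a control response of 1.24. Culture time and depth differed between DMSO and withdrawal in both genotypes. The control withdrawal libraries were also shallower than those of the knockout. The part of culture time and depth in these differences was not tested.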

How the results depend on the processing

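Against DMSO the 385 calls became 1377 with DESeq2, 812 with no filter, 26 with only the groups compared fitted, 1021 at an adjusted p under 0.1 and a log2 change over 0.5, and 0 after thinning to the shallowest library, where fewer reads were left. Leaving out 1 library gave 83 to 852. With the replicate block there were 2418, and further fits with it, chosen after seeing the data, gave 2306 without mitochondrially encoded genes, 1874 without replicate 1 of every group, 13 with only the groups compared, 18 after thinning and 1023, 1313 and 2178 without DMSO replicate 1, 2 or 3, and 1130, 2423 and 1743 without withdrawal replicate 1, 2 or 3. Against the drug the 5 calls became 30 with a minimum of 10 counts, 447 with DESeq2, 0 with limma voom, 151 with no filter, 0 with only the groups compared, 17 with scaling by totals, 0 after thinning, 98 with the looser call and 1096 without replicate 1 of every group, with 0 to 260 without 1 library. With the block they were 633, then 655 without mitochondrially encoded genes, 2786 without replicate 1 of every group, 266 after thinning and 253, 51 and 241 without drug replicate 1, 2 or 3, and 1607, 129 and 135 without withdrawal replicate 1, 2 or 3. For the drug against DMSO the 3072 calls became 5119 with the block, 5148 with it and without mitochondrially encoded genes, 4869 without replicate 1 of every group, 5288 with only the groups compared, 4675 after thinning and 3584 to 4640 without 1 library, and 1302 to 2817 without 1 library and no block. The 11 knockout differences became 22 with DESeq2, 20 with no filter, 18 with the block, 18 with it and without mitochondrially encoded genes, 31 with it and without replicate 1 of every group, 4 with it after thinning, 3 after thinning alone and 6 without replicate 1 of every group. Without 1 library they were 9 to 15, or 10 to 20 with the block (17 without knockout DMSO replicate 1, 20 and 19 without control withdrawal replicate 2 or 3). Among members of the gene lists, 42 calls became 129 with the block, which ended none of the 385 calls against DMSO or the 5 against the drug. For genes chosen from the 48 h experiment, a limit of 1 on the log2 scale moved the medians to −1.18 and 1.35, and scaling by totals to −0.54 and 0.83. The 23 genes shown with the largest changes kept their direction in every fit that tested them. They were chosen on these same libraries for groups that do not overlap, so this is not independent support. Of these genes 23 were called with the block, 23 with DESeq2, 20 with voom and 22 with scaling by totals. With only the groups compared 10 were called, or 7 with the block, and after thinning 0, or 9 with the block. No named result that passed the test changed sign, but many calls were lost. Of 54 named genes called against DMSO 34, 30 and 29 were called without DMSO replicate 1, 2 or 3. Without withdrawal replicate 1, 2 or 3 the counts were 39, 45 and 38. With only the groups compared 17 of 53 were called, or 12 with the block, and after thinning 0 of 52, or 15 with the block. The cause of these differences between settings was not tested.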

Other observations

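Granule genes took different courses between the groups. *LTF* was at 6.21, 16.5 and 8.61 CPM in the drug, 0.560, 0.177 and 0.682 CPM at 48 h and 17.1, 6.47 and 4.61 CPM at 96 h after withdrawal. *S100A12*, a calcium-binding protein of neutrophils, had 10.8, 29.0 and 11.6, then 1.96, 0.354 and 0.682, then 20.2, 9.70 and 6.45 CPM at the same times. For both, as for *CAMP* and *DEFA3*, each 48 h library lay below each library of the other drug-exposed groups. *BPI* had 17.2, 36.5 and 49.7 CPM in the drug, 19.3, 62.4 and 50.2 CPM at 48 h and 13.5, 25.9 and 41.2 CPM at 96 h, and its 48 h libraries overlapped both other groups. The 48 h libraries were not fitted against the 96 h ones, and these genes were chosen after their values were seen.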
